A study of Salmo salar with 18 samples.

Results

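The 100 genes with the highest mean level in the gill of Atlantic salmon (Salmo salar) were described, out of 69389 genes in the count tables, of which 50609 had at least 1 count in the 12 libraries used for the choice. A level is given as CPM, the fragments counted for a gene per 1000000 fragments counted in its library. Genes were ranked by mean CPM over the 12 libraries of pre-stress and 1 h post-stress fish, after 4 genes (collagens and a neighbour of hbb1) had been set aside, and the first 100 were kept. The genes were thus chosen by their measured CPM, so their levels are a description and carry no test. The fish were parr of a single genetic line that had eaten a control feed (CD) or that feed with added LAN4, a hydrolyzed product of the yeast Debaryomyces hansenii, for 7 weeks and a further week of acclimatization. The stress was 1 min in a net out of the water. Gills of 3 fish each were sequenced from LAN4 and from CD fish before the stress (pre-stress), 1 h after it and 6 h after it, so that the 6 groups gave 18 libraries, 1 per fish. By their labels the groups differed in diet and sampling time alone, and the CD pre-stress fish had neither the product nor the stress. The RNA came from whole tissue of the second gill arch, a mixture of cell types, and the tanks of the sequenced fish are not given in the sources used here. The paper kept each diet in tanks of its own, so differences between the diets cannot be told apart from differences between tanks. Sampling time may also have gone with tank.

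The gill of a fish is a surface for gas exchange, ion transport and nitrogen excretion, and at the same time a barrier against the water. Its lamellae are covered by epithelial cells with keratin filaments and tight junctions, among them mucous cells and ionocytes, and are perfused through pillar cells, so that whole gill RNA also holds transcripts of the red blood cells, which keep their nucleus in fish, and of resident immune cells. The most abundant messenger RNAs of a tissue are usually a mixture of genes that every cell needs, such as ribosomal proteins and chaperones, and of the products of its own cell types. In such bulk tissue, fewer cells of a type and less RNA per cell cannot be told apart.

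Library totals were 10128626 to 19851609 fragments over the 12 libraries of pre-stress and 1 h, and 14686078 to 15102528 at 6 h. The counts of the 6 h libraries stop partway along the genome, so values at 6 h are given only for the 74 of the 100 genes that lie on the 16 chromosomes (1 to 6, 9 to 16, 19 and 20) counted along their whole length, and as CPM scaled to the fragments on those chromosomes. All 1 h libraries had been read on lane 1 of the sequencer and all others on lane 3, so that at 1 h the time after stress and the lane cannot be told apart, while the diets were compared within a lane. The tissue label was set against marker genes. The 4 of 7 ionocyte markers with a match summed to 494 to 1049 CPM, and those of pillar and endothelial cells (3 of 5) to 605 to 1011. Those of epithelium (2 of 7, krt18 and claudins, over 20 genes) summed to 458 to 631, and those of erythrocytes (3 of 5) to 615 to 945. Goblet cell markers (1 of 4) summed to 102 to 220 CPM and lymphocyte markers (2 of 6) to 17.5 to 38.9. Neuronal and glial markers (3 of 4) summed to at most 1.48 CPM. The only macrophage and granulocyte marker with a match (marco) was at 0 in every library. Markers were matched by name, and csf1r, mpeg1 and mpx had no match, so this 0 cannot show that such cells were absent.

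Names came from RefSeq genes on the same assembly (Ssal_v3.1). A gene took a RefSeq name where the 2 spans overlapped by at least 0.5 of each. Of the 100 genes, 79 had such a match, but only 25 of these had a real symbol or a synonym, so the other 54 appear under their LOC number with no role. A further 21 had no match and are given by Ensembl identifier, of which 15 enclosed at least 0.9 of a RefSeq gene, named here as lying inside the span. The counting had skipped fragments with more than 1 possible place or gene, so genes with near-identical copies, including many of the salmon duplicates, are under-counted to an unknown extent. The 100 genes lay on 28 chromosomes, with at most 8 on one, and 1 lay on an unplaced scaffold.

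Together the 100 genes held 12.2% ± 0.786 of all counted fragments (SD, n = 12 libraries), against 14.6% for the next 400 genes and 19.8% for the 1500 genes after these. The 10 highest held between 2.54% and 3.74%. The share of the 100 genes was 12.5% ± 0.794 in LAN4 fish at 1 h, against 12.3% ± 0.677 in LAN4 pre-stress fish, and 11.4% ± 0.843 in CD fish at 1 h, against 12.5% ± 0.613 in CD pre-stress fish (SD, n = 3 each). The 4 ranges overlapped, so no group of fish stood apart in how far its RNA was concentrated in these genes. Mean levels ran from 633 to 4766 CPM with a median of 852 CPM, and 56 of the 100 genes were among the top 100 in every one of the 12 libraries, while 92 were among the top 200 in every one.

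**Figure D1:**
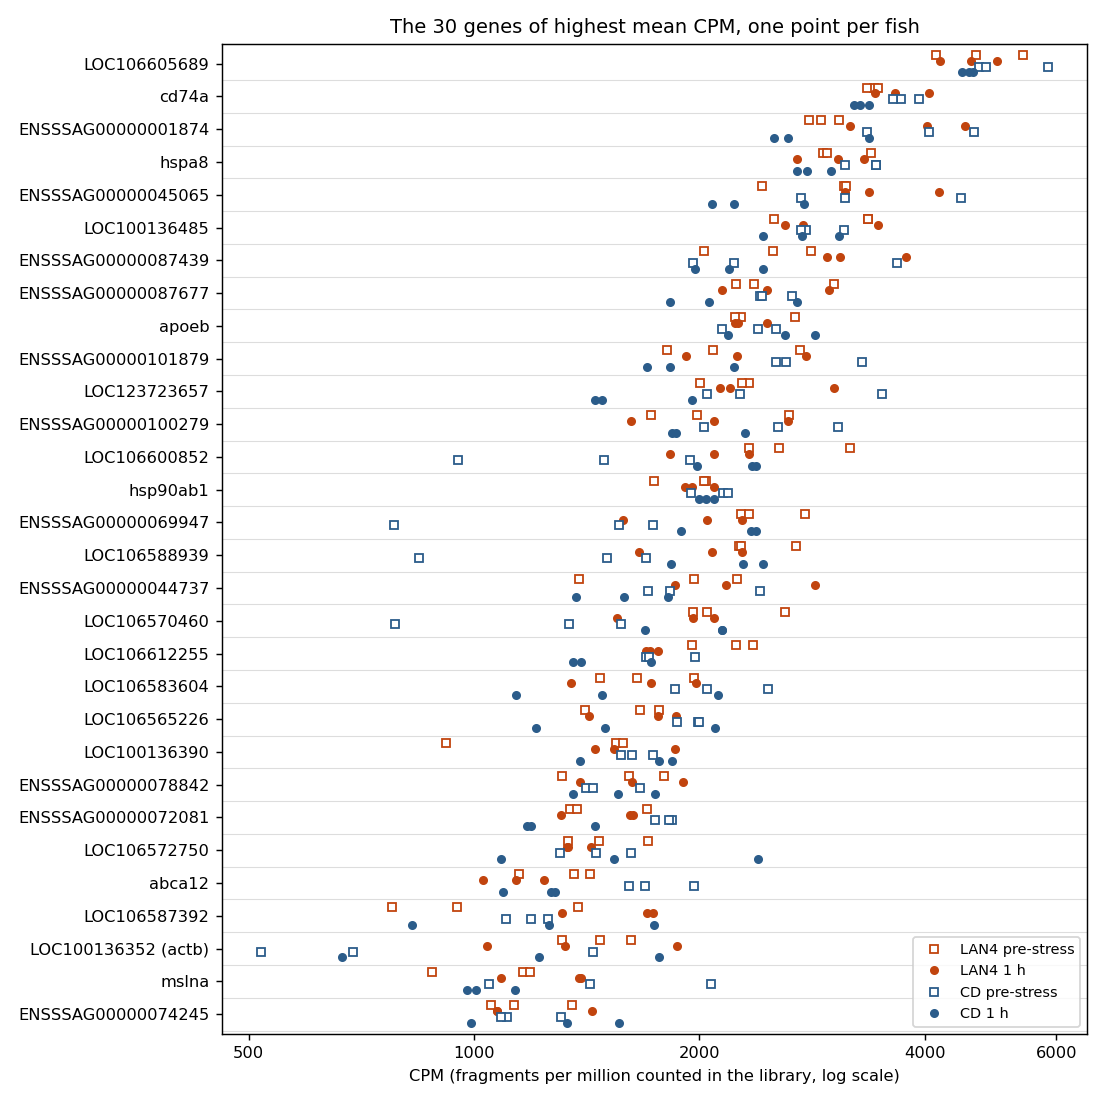
Level of the 30 genes of highest mean CPM in each of the 12 pre-stress and 1 h libraries, with CPM on a log axis and 1 point per fish (open squares pre-stress, filled circles 1 h, orange LAN4, blue CD). LOC106605689 and cd74a led in mean CPM. The genes differed in spread, with the highest library between 1.26 (hsp90ab1) and 3.59 (actb) times the lowest. LOC106600852, ENSSSAG00000069947, LOC106588939 and LOC106570460 each had a CD pre-stress fish far below the rest.

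Among the 100 genes, LOC106605689 (chromosome 5, from 69645255 to 69650463, minus strand) had the highest mean CPM. It had 4191, 4619 and 4996 CPM in LAN4 fish at 1 h, against 5418, 4143 and 4692 in LAN4 pre-stress fish, and 4489.7, 4648 and 4587 in CD fish at 1 h, against 5851, 4726 and 4836 in CD pre-stress fish. CD pre-stress fish 1 was the highest of the 12, and the LAN4 groups overlapped. CPM favours long transcripts, so some levels are also given per length, as TPM (counts divided by the summed exon length of each gene and then scaled to a total of 1000000 in every library). Where only CPM is given below, the order of different genes also depends on their length. Of the 100 genes, 51 were also among the 100 of highest mean TPM, and mean TPM ran from 99.9 for LOC106601336, with 21876 bases of exon, to 7263 for LOC123723657, with 875 bases. The median over the 100 genes was 1045 TPM and the median exon length 3206 bases. Per length, LOC123723657 was followed among the 100 by cd74a at 6229 TPM, LOC106605689 at 3817, ENSSSAG00000001874 at 3732 and rplp1 at 3722 TPM.

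Immune and iron genes were led by cd74a, which encodes the invariant chain that guides MHC class II molecules to the compartment where peptides are loaded. Its level was 3439, 4059 and 3649 CPM in LAN4 fish at 1 h, against 3419.8, 3348 and 3463 in LAN4 pre-stress fish. In CD it was 3371, 3275 and 3224 CPM at 1 h, against 3930.0, 3726 and 3628 pre-stress. Its highest library was only 1.26 times its lowest, which made it one of the steadiest genes. FRIH, the ferritin heavy chain that stores iron, averaged 1332 ± 134 CPM in LAN4 and 1088 ± 79.2 in CD at 1 h, and 1054 ± 112 in LAN4 and 1096 ± 169 in CD pre-stress (SD, n = 3 each). The gamma chain of complement component 8 (c8g) averaged 679.9 CPM over the 12 libraries and ranged from 441 to 1038, a wider band than that of cd74a.

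Chaperones and protein-folding genes made up another group. The constitutive heat shock protein genes hspa8 and hsp90ab1 averaged 3074 and 2016 CPM (3163 and 1464 TPM), and ppia1, the prolyl isomerase cyclophilin A, 738 CPM (2027 TPM). The heat shock genes varied little between the 12 libraries, with a highest-to-lowest ratio of 1.28 for hspa8 and 1.26 for hsp90ab1, against 1.61 for ppia1. A related stress-responsive gene, the cold-inducible RNA-binding protein CIRBP, lies inside ENSSSAG00000087677, which averaged 2441 CPM and ranged from 1829 to 3023 CPM, a ratio of 1.65.

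Transcripts of the globins, the oxygen carriers of red blood cells, were spread over overlapping gene models. ENSSSAG00000045065 (chromosome 6, from 37584853 to 37672987, plus strand) enclosed hba and 11 other RefSeq genes and averaged 3066 CPM. Its neighbour on the other strand, ENSSSAG00000087439, enclosed 4 RefSeq genes under LOC numbers alone, none with a globin name. That model averaged 2637 CPM, and ENSSSAG00000044737 on chromosome 3, which enclosed hbb, 1933 CPM. The neighbour of hbb1 that was set aside from the ranking is not included here. As each model holds several RefSeq genes, its level cannot be given to a single globin, and counts of near-identical copies are uncertain. In ENSSSAG00000045065 the values were 3373, 3127 and 4185 CPM in LAN4 at 1 h, against 2078, 2227 and 2764 in CD at 1 h. Pre-stress they were 3122, 3139 and 2428 CPM in LAN4, against 4479.7, 2739 and 3135 in CD. The diets did not overlap at 1 h and overlapped pre-stress, where CD fish 1 was the highest.

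The protein synthesis machinery was the largest named group. A list of ribosomal protein genes, with the ribosome-bound scaffold rack1 among them, matched 9 of the 100 genes (rpl7a, rpl12, rpl13a, rps8a, rs2, rpl4, rpl8, rack1 and rplp1), and 2 further gene models enclosed rps3a and rpl27. Mean levels of the 9 were 667 to 991 CPM, and per length they ran from 1059.5 TPM for rps8a to 3722 TPM for rplp1, the shortest of the 100 at 513 bases. ENSSSAG00000078842, which enclosed the elongation factor gene ef-1aO, averaged 1567 CPM and 1161 TPM. Mitochondrial energy metabolism was represented by a nuclear gene, atp5a1 of the ATP synthase, at 689 CPM.

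Genes of the epithelium and its contacts included ENSSSAG00000074245, which enclosed k2c8 of the keratin 8 kind, at 1209 CPM, tacd2, a surface glycoprotein of epithelial cells, at 819.5, spint2, an inhibitor of serine proteases at epithelial surfaces, at 678, and mslna, a mesothelin, at 1229.7 CPM. The lipid transporter abca12, known from the barrier lipids of mammalian skin, averaged 1354 CPM on 17399 bases of exon, so that per length it stood at 224 TPM. Adhesion and lipid transport were represented by nca11, of the neural cell adhesion molecule family, at 1178 CPM, and by apoeb, an apolipoprotein E, at 2404 CPM. Matrix genes were ENSSSAG00000069947, which enclosed col1a1b of type I collagen, at 1999 CPM, col4a4, a chain of basement membrane collagen, at 883, and fn1a, a fibronectin, at 633 CPM. Since 4 genes had been set aside from the ranking, collagens are represented here by fewer genes than the gill expresses at these levels.

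The genes differed in how far fish of the same group varied. Over the 100 genes, the median SD of log2 CPM between fish of a group was 0.21, against 0.18 for the next 400 genes in rank, 0.15 for the 1500 genes after these and 0.20 for all 29886 genes with a mean of at least 1 CPM. High counts thus did not come with a small spread between fish. Of the 100 genes, 55 had a larger SD than the median of those 29886 genes. The highest of the 12 libraries was between 1.15 and 3.59 times the lowest, with a median ratio of 1.67, and the ratio was at least 2 in 26 genes and below 1.5 in 25.

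The most variable gene was actb, the cytoplasmic actin often used as a reference gene, with an SD of 0.57. Its level was 1868, 1322 and 1039.6 CPM in LAN4 at 1 h, against 1309.6, 1472 and 1621 in LAN4 pre-stress. In CD it was 1221, 666 and 1768 CPM at 1 h, against 519.7, 689 and 1442 pre-stress. The fish of 3 of the 4 groups thus differed by more than the group means did, and all 4 groups overlapped with at least one other. The next most variable were fn1a (0.44), LOC106600816 (0.44), LOC106587392 (0.36) and ENSSSAG00000069947 (0.36). The steadiest were LOC106580855 (SD 0.049, 792 to 907 CPM), LOC106612603 (0.064), cd74a (0.070), hsp90ab1 (0.087) and LOC106609224 (0.089).

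**Figure D2:**
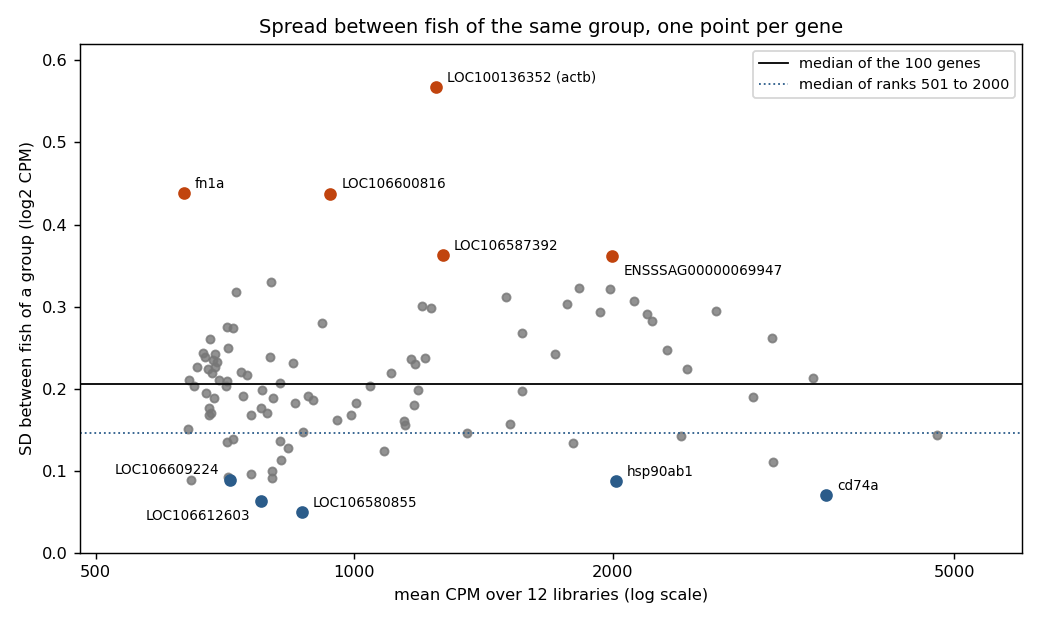
SD of log2 CPM between fish of the same group against mean CPM (log axis) for the 100 genes, 1 point per gene, with the 5 largest (orange) and 5 smallest (blue) SDs named. The solid line is the median of the 100 genes (0.21) and the dotted line the median of the 1500 genes ranked after the first 500 (0.15), and actb lies at 0.57.

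With any 1 library left out, the median SD over the 100 genes stayed between 0.19 and 0.22. The highest and lowest of the 12 libraries were nevertheless often the same few fish. CD pre-stress fish 1 had the highest CPM of all 12 libraries in 29 of the 100 genes and the lowest in 10, among them LOC106600852, ENSSSAG00000069947, LOC106588939, LOC106570460, LOC106610502, actb and fn1a. CD fish 1 at 1 h had the lowest CPM in 37 genes and the highest in 4, and LAN4 fish 3 at 1 h the highest in 23 and the lowest in 8. LAN4 pre-stress fish 2 had the lowest in 18. ENSSSAG00000069947, with col1a1b inside, shows the pattern of the genes low in CD pre-stress fish 1. It had 2272, 2332 and 2772 CPM in LAN4 pre-stress fish, against 781, 1562 and 1735 in CD pre-stress fish. At 1 h it had 2285, 1579.5 and 2049 CPM in LAN4, against 1891, 2380.4 and 2344 in CD.

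The last genes inside the limit of 100 were ENSSSAG00000099745 with 642 CPM, LOC106563505 with 641 and fn1a with 633, and the first outside it were rl3 with 633, ENSSSAG00000052007 with 632 and LOC106572795 with 631 CPM. The limit is thus not a step in abundance. The pre-stress libraries alone gave 96 of the same 100 genes and the 1 h libraries alone 95, leaving out any single library kept between 98 and 100 of them, and the lowest rank of any of the 100 genes in any library was 408.

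The change within 1 h of the stress was tested gene by gene in each diet with the quasi-likelihood test of edgeR over all 33024 genes that passed the filter on low counts, which all 100 genes passed. In CD fish, 1 of the 100 genes fell and none rose at an adjusted p under 0.05, where 0.563% of all tested genes fell, 1.04% rose and 1.6% changed in either direction. DESeq2 called 11 of the 100 genes, all lower, and 35 had an unadjusted p under 0.05 by edgeR. The shares over all tested genes are those of the adjusted p by edgeR. For DESeq2 and for unadjusted p no such share is given, here or below. Those counts therefore do not show an excess among the abundant genes. The gene that fell was ENSSSAG00000099702 (chromosome 27, from 10474942 to 10510971, plus strand), which encloses LOC123730933 and has no named role. It had 478, 394 and 387 CPM in CD fish at 1 h, against 979.9, 986 and 613 in CD pre-stress fish. All 3 fish at 1 h lay below all 3 pre-stress fish, of which fish 3 was the lowest (log2 fold change -1.08, SE 0.17, adjusted p = 0.00695 by edgeR). The call held in 18 of 19 alternatives and was lost without CD fish 2 at 1 h (adjusted p = 0.0554).

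Below the threshold, the abundant genes leaned one way in CD. The fold change was negative in 75 of the 100 genes with a median of -0.21 on the log2 scale, whereas over all tested genes 50.1% were negative and the median was -0.000885. The same lean was seen further down the ranking, with 74.5% negative and a median of -0.16 in the next 400 genes, and 58.5% and -0.044 in the 1500 genes after these, so it was not particular to the first 100. Leaving out any 1 of the 12 libraries left between 69 and 78 of the 100 genes negative, with a median between -0.26 and -0.16. The smallest lean (69 negative, median -0.16) was that without CD pre-stress fish 1, which had the highest level in 29 of the genes. Without CD fish 1 at 1 h, which had the lowest level in 37 of the genes, 71 were negative with a median of -0.17. With library totals in place of TMM 68 were, with a median of -0.16. The 3 fish at 1 h lay wholly below the 3 pre-stress fish in 32 of the genes, a pattern found in 12.4% of all tested genes, and wholly above in 6, against 12.7% of all tested genes. These ranges were compared on TMM-scaled CPM.

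The ribosomal protein genes were part of this lean. All 9 of the abundant ones had a negative fold change in CD, with a median of -0.44, and 0 of the 9 passed the test. In 6 of the 9 the 3 fish at 1 h lay wholly below the 3 pre-stress fish. The same pattern was found in 32 of the 100 genes and in 12.4% of all tested genes. Over the whole list, 61 of 62 tested genes were negative with a median of -0.42, and 1 fell. The summed level of the 9 genes was 5679 ± 827 CPM in CD fish at 1 h, against 7071 ± 270 CPM in CD pre-stress fish (SD, n = 3 each). Single values were 640.3, 413 and 534 CPM for rs2 at 1 h, against 709.9, 745 and 802 pre-stress (log2 fold change -0.55, SE 0.17, adjusted p = 0.125 by edgeR). For rpl12 they were 577, 579.7 and 765 CPM, against 939, 868 and 829.5 (log2 fold change -0.50, SE 0.16, adjusted p = 0.14). Neither gene had a fish at 1 h as high as the lowest pre-stress fish.

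Among the other abundant genes in CD, those with the lowest p after the called gene were abca12, LOC106586497 and ENSSSAG00000072081, and none of these passed. The epithelial lipid transporter abca12 had 1282, 1266 and 1093 CPM at 1 h, against 1965, 1693 and 1609.7 pre-stress (log2 fold change -0.58, SE 0.15, adjusted p = 0.0675 by edgeR). The values did not overlap, and DESeq2 gave an adjusted p of 6.30e-04. LOC106586497 had a log2 fold change of -0.40 (adjusted p = 0.102) and ENSSSAG00000072081 of -0.54 (adjusted p = 0.11). The 6 genes that lay wholly above the pre-stress fish were ENSSSAG00000069947, LOC106588939, LOC106570460, LOC106610502, ENSSSAG00000096177 and ENSSSAG00000099745, and none of them passed the test either. In the 4 named first, CD pre-stress fish 1 was the lowest of the 12 libraries. Cartilage markers (3 of 6 matched) moved in the same direction, at 169 to 335 CPM in CD fish at 1 h, against 62.6 to 132 CPM in CD pre-stress fish. Skeletal muscle markers (4 of 9 matched, over 8 genes) did not, at 0.246 to 21.7 CPM in CD fish at 1 h, against 7.22 to 39.3 CPM pre-stress. The part of either marker set in these values was not tested.

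**Figure D3:**
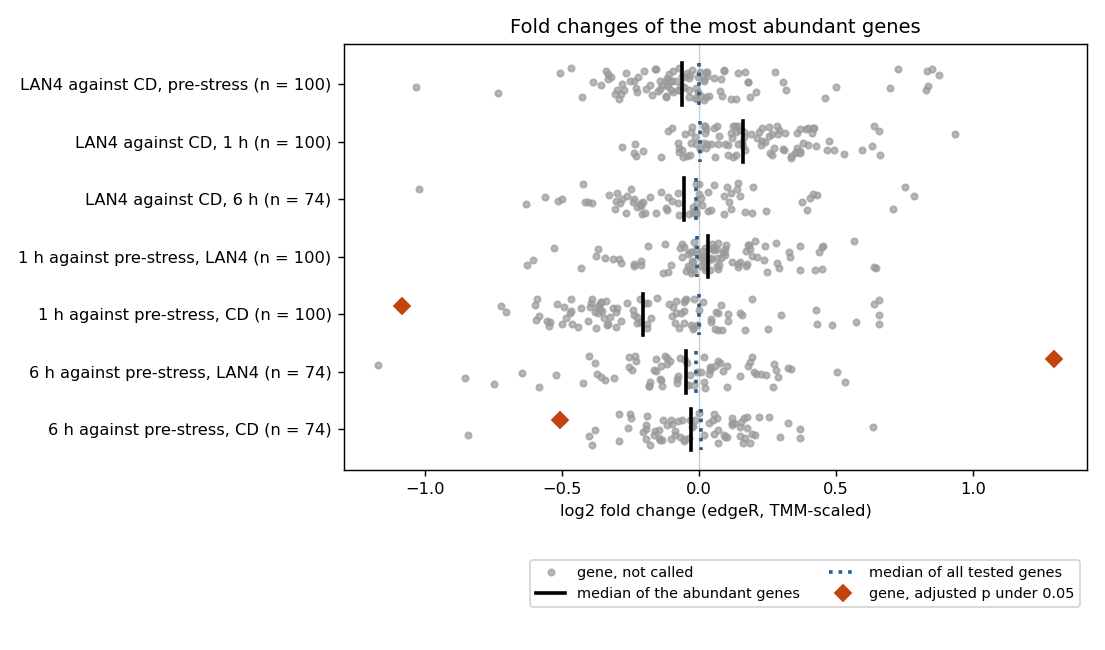
Log2 fold changes of the abundant genes in the 7 pairwise comparisons (edgeR, TMM-scaled), 1 point per gene, with the median of the abundant genes as a black line and that of all tested genes as a dotted blue line. The black line lies at -0.21 for CD and 0.034 for LAN4 at 1 h against pre-stress, and at 0.16 for LAN4 against CD at 1 h, and the 3 orange diamonds are the genes that passed the threshold.

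In LAN4 fish, 0 of the 100 genes passed the edgeR test at 1 h against pre-stress, where 0.775% of all tested genes rose, 0.148% fell and 0.924% changed in either direction. DESeq2 called 2 higher and 4 lower, and 13 had an unadjusted p under 0.05 by edgeR. The fold change was positive in 63 genes with a median of 0.034, against 48.8% and -0.0086 over all tested genes. In the next 400 genes 61.5% were positive with a median of 0.0545, so this was not particular to the first 100. The lean over the 100 genes depended on single fish. Leaving out 1 library gave between 41 and 74 positive genes and a median between -0.040 and 0.14. The lowest values (41 genes, -0.040) were those without LAN4 fish 3 at 1 h. With library totals in place of TMM, 52 genes were positive. The fish at 1 h lay wholly above the pre-stress fish in 11 genes and wholly below in 10, patterns found in 9.44% and 10.3% of all tested genes. The 9 ribosomal protein genes summed to 6985 ± 739 CPM at 1 h, against 6966 ± 777 CPM pre-stress (SD, n = 3 each), and the whole list had a median fold change of 0.030 on the log2 scale.

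The 3 abundant genes with the lowest p in LAN4 did not pass. LOC106601336 had 697, 598 and 608 CPM at 1 h, against 837, 860.1 and 915 pre-stress (log2 fold change -0.43, SE 0.11, adjusted p = 0.106 by edgeR). All fish at 1 h lay below all pre-stress fish, and DESeq2 gave an adjusted p of 2.91e-05. ENSSSAG00000099745 had 649, 776 and 797 CPM at 1 h, against 489.7, 639.8 and 406 pre-stress (log2 fold change 0.56, SE 0.17, adjusted p = 0.144 by edgeR). LOC100380643 had 1195, 844 and 769 CPM at 1 h, against 1431, 1356 and 1552 pre-stress (log2 fold change -0.61, SE 0.18, adjusted p = 0.146 by edgeR). In both genes the groups did not overlap. Without LAN4 fish 1 at 1 h, a further gene, LOC106595815, passed (log2 fold change 0.93, adjusted p = 0.0106).

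Genes known to respond early to stress were not found among the abundant genes that carried a name. Of a list of 24 tested immediate early and stress-induced genes (the fos, jun, egr, klf and btg families and others), 0 belonged to the 100, and 10 rose and 1 fell in CD, against 11 that rose and 1 that fell in LAN4, at 1 h. This list was matched by name, so the 54 abundant genes under a LOC number alone and the 21 without a match could not belong to it. It was chosen with earlier results of these data known, so the numbers that rose are a description and no test of a response. The 41 tested chaperone and protein turnover genes held 3 of the 100 (hspa8, hsp90ab1 and ppia1), with 0 of these 3 called in either diet. The heat shock gene hspa8 had 2701, 2787 and 3003 CPM in CD at 1 h, against 3446, 3133 and 3444 in CD pre-stress (log2 fold change -0.28, SE 0.15, adjusted p = 0.345 by edgeR). In LAN4 it had 3066, 2701 and 3323 CPM at 1 h, against 3393, 2927 and 2966 pre-stress (log2 fold change -0.0039, SE 0.15, adjusted p = 0.994 by edgeR). The CD fish at 1 h lay just below the CD pre-stress fish, and the LAN4 fish overlapped.

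Whether the diets differed in the change at 1 h was tested as an interaction, LAN4 minus CD. By edgeR, 0 of the 100 genes passed, where 0.0182% of all tested genes did (0.0151% positive and 0.00303% negative), 2 passed by DESeq2, and the unadjusted p was under 0.05 in 23. The interaction was positive in 77 of the 100 genes with a median of 0.28, in 79% of the next 400 genes with a median of 0.25, and in 62.7% of the 1500 genes after these with a median of 0.097, against 49.7% and -0.00225 over all tested genes. It stayed positive in between 73 and 85 of the 100 genes when any 1 library was left out, and in 69 with library totals in place of TMM. The largest value was that of ENSSSAG00000099702, at 1.25 (SE 0.24, adjusted p = 0.244 by edgeR and 2.46e-04 by DESeq2). In LAN4 this gene had 795, 768 and 736 CPM at 1 h, against 599, 766 and 721 pre-stress (log2 fold change 0.17, SE 0.17, adjusted p = 0.692 by edgeR). The interaction passed the edgeR test without CD pre-stress fish 3 (adjusted p = 0.026). The genes with the next lowest p were ENSSSAG00000001874 at 1.00 (adjusted p = 0.346 by edgeR, 0.0225 by DESeq2) and LOC106605319 at 0.78 (adjusted p = 0.383).

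At 1 h post-stress, LAN4 and CD fish were compared within one lane, with the same CD fish as in the comparison of CD with its pre-stress group. Of the 100 genes, 0 passed the edgeR test, where 0.0151% of all tested genes did (0.00908% higher and 0.00606% lower in LAN4), 1 passed by DESeq2, and the unadjusted p was under 0.05 in 21. LAN4 was higher in the fitted value of 79 of the 100 genes with a median log2 fold change of 0.16, against 50.3% and a median of 0.00174 over all tested genes, and 77.5% and 0.19 in the next 400 genes. With any 1 library left out, between 71 and 82 genes were positive with a median between 0.11 and 0.23, and with library totals in place of TMM 68 were, with a median of 0.095. The LAN4 fish lay wholly above the CD fish in 12 genes and wholly below in 0, against 6.98% and 7.1% of all tested genes.

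ENSSSAG00000099702 had the largest difference between the diets at 1 h (log2 fold change 0.93, SE 0.17, adjusted p = 0.273 by edgeR), and all 3 LAN4 fish (736 to 795 CPM) lay above all 3 CD fish (387 to 478 CPM). The gene passed with DESeq2 (adjusted p = 9.38e-05) and with edgeR when CD pre-stress fish 3 was left out (adjusted p = 0.041). The complement gene c8g had 588, 765 and 1038 CPM in LAN4 at 1 h, against 441, 523 and 655 in CD at 1 h (log2 fold change 0.63, SE 0.21, adjusted p = 0.53 by edgeR). The groups overlapped in 1 fish each. For ENSSSAG00000045065, with hba inside, the test gave log2 fold change 0.66, SE 0.22, adjusted p = 0.53 by edgeR. The spans with hba or hbb inside summed to 5228, 5297 and 7041 CPM in LAN4, against 3445, 3816 and 4582 CPM in CD at 1 h. The erythrocyte markers (3 of 5 matched) were likewise higher, at 782 to 854 CPM in LAN4, against 615 to 699 CPM in CD, and their part in the globin values was not tested. Among the other genes without overlap were cd74a, FRIH, atp5a1 and LOC123723657, with log2 fold changes of 0.24, 0.36, 0.17 and 0.65. None of these passed (adjusted p = 0.605, 0.548, 0.796 and 0.53 by edgeR).

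The ribosomal protein genes were higher in LAN4 at 1 h in 61 of 62 fitted values with a median of 0.37, and in 9 of 9 of the abundant ones with a median of 0.40, yet 0 of the 62 passed the test. The 9 summed to 6985 ± 739 CPM in LAN4, against 5679 ± 827 CPM in CD (SD, n = 3 each), and the groups overlapped, since CD fish 3 (6633 CPM) lay above the lowest LAN4 fish (6499 CPM). The median over the 69 tested mitochondrial and respiration genes was 0.25 and 58 of them were positive, and none of these passed.

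**Figure D4:**
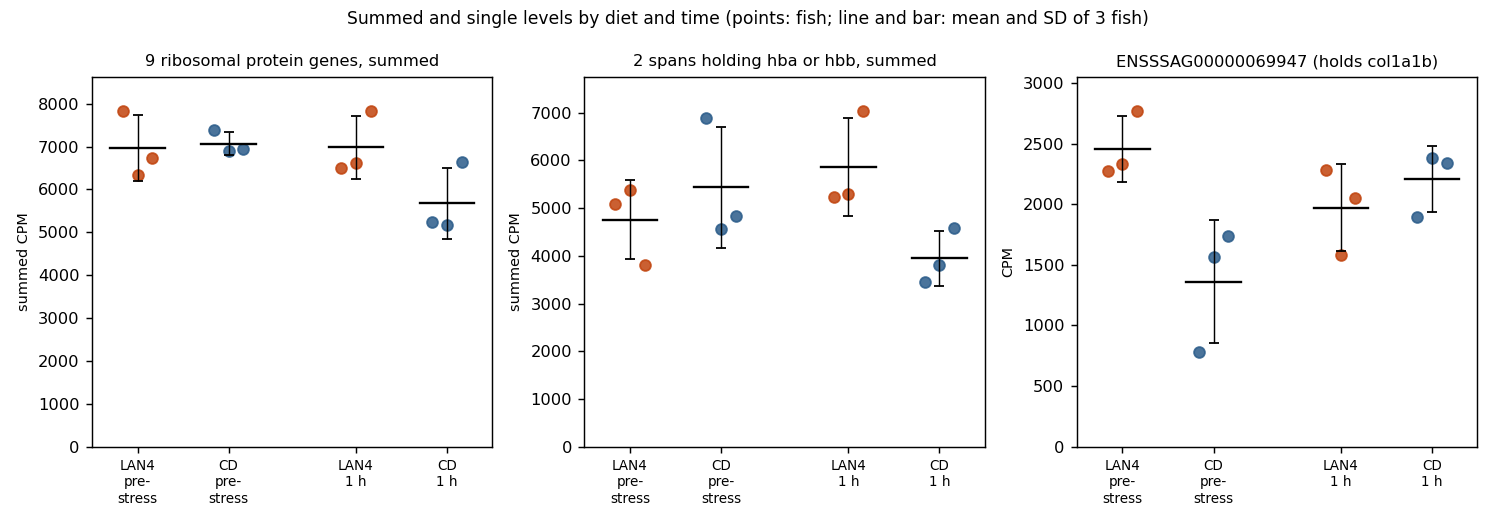
Summed CPM of the 9 ribosomal protein genes and of the spans with hba or hbb inside, and CPM of ENSSSAG00000069947 (col1a1b inside), by diet at pre-stress and 1 h, 1 point per fish with the mean and SD of 3 fish. CD at 1 h has the lowest mean in the first and second panels (5679 and 3948 CPM), and CD pre-stress fish 1 (781 CPM) is the lowest in the third.

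Before the stress, 0 of the 100 genes differed between the diets by edgeR, where 0.00606% of all tested genes did (0.00303% higher and 0.00303% lower in LAN4), DESeq2 called 5 higher and 1 lower in LAN4, and 14 had an unadjusted p under 0.05. LAN4 was lower in the fitted value of 64 genes with a median of -0.064, against 50.3% and -0.00174 over all tested genes and 68.8% and -0.065 in the next 400 genes, and with any 1 library left out between 51 and 75 genes were negative. LAN4 fish lay wholly above CD fish in 8 genes and wholly below in 12, against 9.19% and 7.12% of all tested genes. The 5 genes that DESeq2 called higher were LOC106600852, LOC106610502, LOC106570460, LOC106588939 and ENSSSAG00000069947, in each of which CD pre-stress fish 1 was the lowest of the 12 libraries, with fitted log2 fold changes between 0.83 and 0.87 by edgeR.

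For LOC106600852 the values were 2556, 2331 and 3185 CPM in LAN4 pre-stress fish, against 953, 1494 and 1941 in CD pre-stress fish (log2 fold change 0.87, SE 0.22, adjusted p = 0.269 by edgeR, 0.0112 by DESeq2). For LOC106610502 they were 1034, 1118 and 1366 CPM, against 458, 737 and 774 (log2 fold change 0.83, SE 0.20, adjusted p = 0.242 by edgeR, 0.00554 by DESeq2). In both genes no CD fish reached the lowest LAN4 fish, and CD fish 1 was the lowest. At 1 h the fitted differences of both were near 0 (-0.043 and -0.024). Cartilage markers summed to 165 to 205 CPM in LAN4 pre-stress fish, against 62.6 to 132 CPM in CD pre-stress fish, and skeletal muscle markers (4 of 9 matched, over 8 genes) to 52.7 to 64.4 CPM, against 7.22 to 39.3 CPM. At 1 h the cartilage markers summed to 126 to 279 CPM in LAN4 fish, against 169 to 335 CPM in CD fish. The skeletal muscle markers were still higher in LAN4 at 1 h, at 21.9 to 53.2 CPM, against 0.246 to 21.7 CPM in CD. The part of these markers in the values was not tested.

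LOC106595815 (chromosome 2, from 93983112 to 93987825, minus strand) ran the other way pre-stress. It had 495, 418 and 445 CPM in LAN4 pre-stress fish, against 979, 862 and 916 in CD pre-stress fish (log2 fold change -1.03, SE 0.23, adjusted p = 0.232 by edgeR, 0.00279 by DESeq2). The groups were far apart for their spread, yet the gene did not pass in the fit of 12 libraries. It passed in the 6 pre-stress libraries alone (adjusted p = 0.0352, an alternative added after the data had been seen) and without LAN4 fish 1 at 1 h (adjusted p = 0.0192).

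At 6 h, the 74 genes on completely counted chromosomes were tested within 23153 genes of these chromosomes, in all 18 libraries. Pre-stress fish are the same as in the comparisons at 1 h, and both times after stress are set against them. Levels set beside those at 6 h are likewise CPM on these chromosomes. The 74 genes held between 11.3% and 12.8% of these fragments in the 6 h libraries and between 10.9% and 13.8% in the others. In CD fish, 1 of the 74 genes fell at 6 h against pre-stress and 0 rose, where 1.3% of all tested genes fell, 1.81% rose and 3.11% changed in either direction, DESeq2 called 2 lower, and 6 had an unadjusted p under 0.05. In LAN4 fish, 1 rose and 0 fell, where 2.36% of all tested genes rose, 1.42% fell and 3.78% changed in either direction, DESeq2 called 5 higher and 4 lower, and 13 had an unadjusted p under 0.05.

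The gene that fell in CD was ENSSSAG00000096177 (chromosome 13, from 98653395 to 98659903, plus strand), which has no named role. Its level in CD, in CPM on these chromosomes, was 1059.9, 1088 and 930.4 pre-stress, 1248, 1215 and 1172 at 1 h and 705, 739.8 and 668 at 6 h. In LAN4 it had 881, 1080.1 and 1077 pre-stress, 1195, 1318 and 1318 at 1 h and 782, 754 and 817 at 6 h. In each diet the 3 fish at 6 h were the lowest and the 3 fish at 1 h the highest, without overlap with pre-stress. The test of 6 h against pre-stress gave log2 fold change -0.51, SE 0.11, adjusted p = 0.0202 by edgeR in CD and log2 fold change -0.36, SE 0.11, adjusted p = 0.0876 in LAN4, where DESeq2 gave an adjusted p of 0.00363. The call in CD held in 19 of 24 alternatives. It was lost in a fit of the groups compared alone (adjusted p = 0.106) and without CD fish 1 or 3 at 6 h (0.0698 and 0.0721) or CD pre-stress fish 1 or 2 (0.0572 and 0.0911). At 1 h against pre-stress neither diet passed (log2 fold change 0.19 in CD and 0.37 in LAN4).

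The gene that rose in LAN4 was LOC106595815, also without a named role. Its level in LAN4, in CPM on these chromosomes, was 683, 576 and 615 pre-stress, 560.5, 1117 and 1181 at 1 h and 1121, 1758 and 1683 at 6 h. In CD it had 1346, 1192 and 1260.4 pre-stress, 1053, 1198 and 1275 at 1 h and 744, 1719 and 821 at 6 h. All LAN4 fish at 6 h lay above all LAN4 pre-stress fish, while in CD the 6 h fish lay on both sides of the pre-stress fish. The test gave log2 fold change 1.29, SE 0.31, adjusted p = 0.0314 by edgeR in LAN4 and log2 fold change -0.17, SE 0.31, adjusted p = 0.825 in CD, and the interaction at 6 h was 1.46 (adjusted p = 0.996). The call in LAN4 held in 18 of 24 alternatives. It was lost with no filter on low counts (adjusted p = 0.0588), without LAN4 fish 2 or 3 at 6 h (0.116 and 0.0997) and without LAN4 pre-stress fish 1, 2 or 3 (0.0752, 0.127 and 0.0788). The low level of LAN4 pre-stress fish is the base of both this difference and the one between the diets pre-stress.

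**Figure D5:**
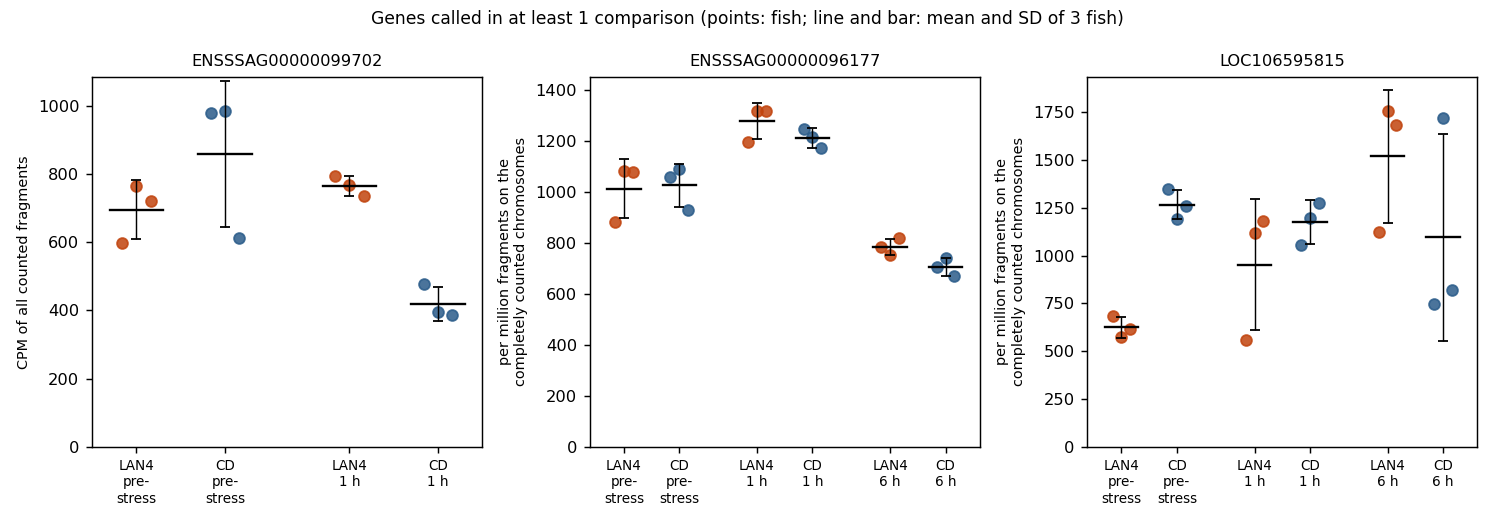
Level by diet and time of the 3 genes that passed the edgeR threshold in at least 1 comparison, 1 point per fish with the mean and SD of 3 fish. The first panel is in CPM of all counted fragments, with CD at 1 h the lowest group, and the other panels are in CPM of fragments on completely counted chromosomes, with the 6 h groups of ENSSSAG00000096177 below the rest and the LAN4 pre-stress group of LOC106595815 below CD pre-stress.

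The 74 genes were divided more evenly at 6 h. In LAN4 the fold change against pre-stress was positive in 31 and negative in 43 genes, with a median of -0.048. Over all tested genes 51.8% were negative and the median was -0.0121. In CD it was positive in 33 and negative in 41 genes, with a median of -0.029. Over all tested genes 49.3% were negative there and the median was 0.00515. These directions depended on single fish, since with any 1 library left out between 36 and 49 genes were negative in LAN4 and between 33 and 43 in CD. The median was positive without LAN4 pre-stress fish 1 in LAN4 (0.028), and without CD fish 1 at 6 h (0.044) or CD pre-stress fish 1 (0.026) in CD. Among the next 400 genes, 300 lay on these chromosomes, of which 60% were positive in LAN4 with a median of 0.055 and 69% in CD with a median of 0.0998. In LAN4, fish at 6 h lay wholly above pre-stress fish in 6 genes and wholly below in 13, against 11.6% and 11.4% of all tested genes, and in CD in 7 and 6, against 11.6% and 10.4%. After LOC106595815, the lowest p in LAN4 were those of LOC106564005 (log2 fold change 0.50, SE 0.14, adjusted p = 0.057 by edgeR) and LOC100136391 (log2 fold change 0.53, SE 0.16, adjusted p = 0.0786). LOC106564005 passed without CD fish 3 at 1 h (adjusted p = 0.0496). With LAN4 fish 1 at 6 h left out, rpl13a passed (log2 fold change -0.79, adjusted p = 0.0313), and with LAN4 fish 2 at 6 h left out, ENSSSAG00000045065 did (-1.04, adjusted p = 0.0432). In CD the next were ENSSSAG00000087242 (log2 fold change -0.40, SE 0.13, adjusted p = 0.111) and c8g (log2 fold change 0.63, SE 0.22, adjusted p = 0.138).

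Between the diets at 6 h, 0 of the 74 genes passed by edgeR, where 0.587% of all tested genes did (0.51% higher and 0.0777% lower in LAN4), DESeq2 called 3 higher and 1 lower in LAN4, and 11 had an unadjusted p under 0.05. LAN4 was lower in the fitted value of 47 genes with a median of -0.056, against 52.2% and -0.0126 over all tested genes and 69.3% and -0.11 in the 300 genes of the next 400 that lie on these chromosomes. The lean over the 74 genes was lost without CD fish 2 at 6 h (37 higher and 37 lower, median -0.0038) and with library totals in place of TMM (37 and 37, median -0.016), and the other libraries left out in turn gave at least 40 lower. LAN4 fish lay wholly above CD fish in 6 genes and wholly below in 8, against 10.5% and 8.77% of all tested genes. The lowest p belonged to 3 of the genes that stood apart between the diets pre-stress. LOC106610502 had 1383, 1558 and 1315 CPM on these chromosomes in LAN4 at 6 h, against 1142, 575 and 829.6 in CD at 6 h (log2 fold change 0.71, SE 0.22, adjusted p = 0.12 by edgeR). LOC106600852 had 3549, 3238 and 2584 in LAN4, against 2061, 1126 and 2136 in CD (log2 fold change 0.78, SE 0.24, adjusted p = 0.124). In both, all LAN4 fish lay above all CD fish, and LOC106570460 had a log2 fold change of 0.75 (adjusted p = 0.139). Cartilage markers summed to 187 to 239 CPM on these chromosomes in LAN4 at 6 h, against 71.4 to 146 in CD, and skeletal muscle markers to 39.5 to 47.5, against 1.35 to 14.1, and their part in the values was not tested.

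The models with hba or hbb inside ran against their direction at 1 h. ENSSSAG00000045065 had 2320.3, 3228 and 1554 CPM on these chromosomes in LAN4 at 6 h, against 3650.3, 3299 and 3769 in CD at 6 h (log2 fold change -0.63, SE 0.24, adjusted p = 0.211 by edgeR). ENSSSAG00000044737, with hbb inside, had 490.3, 1564 and 1338 in LAN4, against 1275, 3776 and 1628 in CD (log2 fold change -1.02, SE 0.42, adjusted p = 0.257 by edgeR), and the diets overlapped. The neighbour ENSSSAG00000087439, with no globin name inside, had 1486, 2498 and 2457 in LAN4, against 4073, 3687 and 1091 in CD. There the diets overlapped too, with CD fish 3 the lowest. The erythrocyte markers summed to 637 to 1005 CPM on these chromosomes in LAN4, against 1053 to 1822 in CD, and their part was not tested. The differences between the diets in these gene models did not pass the test, and the marker sums were not tested. The interaction at 6 h called 0 of the 74 genes by edgeR and 0 by DESeq2, where 0.00432% of all tested genes passed by edgeR, and only 1 of the 74, LOC106595815, had an unadjusted p under 0.05.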

How the data were processed

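Gill RNA of 18 fish (2 diets, 3 sampling times, 3 fish each) was sequenced as stranded, poly(A)-selected paired-end libraries. The authors deposited raw counts per gene, made with featureCounts (Subread 1.5.1) on the Ensembl annotation of Ssal_v3.1 after alignment in the nf-core rnaseq pipeline, without normalization. Counting was by fragment and reverse-stranded, skipped fragments with more than 1 possible place or gene, and kept marked duplicates.

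CPM used library totals, and TPM the deposited exon lengths. edgeR 4.0.16 in R 4.3.3 (filterByExpr, TMM, estimateDisp, robust glmQLFit, glmQLFTest, 1 mean per group) was fitted to the 12 pre-stress and 1 h libraries (33024 genes) and, for 6 h, to 18 libraries on 16 complete chromosomes (23153 genes), with Benjamini-Hochberg adjustment over all genes tested and a threshold of 0.05. SEs of fold changes were derived from the F statistic. The scripts were tested on simulated data. Alternatives were DESeq2 1.42.0, RLE size factors, library totals, no filter, 1 fit over 18 libraries, the groups compared alone, the replicate number as a block, and each library left out. The 3 fish of a group served as replicates, and since their tanks are not given, the p-values measure the spread between these fish, which may have shared a tank.

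The 100 genes and all gene lists were chosen with earlier results of these data known. Named were the 30 of highest CPM, called genes or the 3 of lowest p per comparison, the 5 largest and smallest spreads, those at the limit, up to 4 per list, and, after their values were seen, genes in counts of genes without overlap or with a changed call. Figures were drawn with matplotlib 3.10.9.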

Additional observations from a re-analysis of the deposited data

How the results depend on the processing

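The numbers of abundant genes that passed were small and depended most on the tool. DESeq2 in place of edgeR gave 11 genes for 1 h against pre-stress in CD, 6 in LAN4, 2 for 6 h against pre-stress in CD and 9 in LAN4, and between the diets 6 pre-stress, 1 at 1 h and 4 at 6 h, with 2 for the interaction at 1 h and 0 for that at 6 h. For 6 h against pre-stress in LAN4, library totals without TMM gave 2 genes and no filter on low counts gave 0. With only the groups compared in the fit, 6 h against pre-stress in CD gave 0 and the diets pre-stress gave 1 (the second added after the data had been seen). Leaving out each library in turn gave between 0 and 1 genes for 1 h against pre-stress in CD and in LAN4, 6 h against pre-stress in CD, the diets pre-stress and at 1 h, and the interaction at 1 h, between 0 and 2 for 6 h against pre-stress in LAN4, and 0 for the diets and the interaction at 6 h, and the median SD between fish lay between 0.19 and 0.22. The cause of these changes was not tested. Of 52 fold changes of single genes, 48 kept their sign in every alternative run. The other 4 did not pass in any alternative. That of hspa8 at 1 h in LAN4 turned positive with no filter (0.00625) and with only the groups compared (0.000674, added after the data had been seen), and lay between -0.096 and 0.097 with libraries left out. For the diets at 1 h, leaving out libraries gave -0.14 to 0.047 for LOC106600852 and -0.14 to 0.099 for LOC106610502, and for LOC106595815 at 6 h in CD -0.67 to 0.055. The choice of genes moved with length scaling, under which 51 of the 100 remained. With the replicate block, the number of abundant genes that passed was unchanged in all 9 comparisons (1 for 1 h against pre-stress in CD), and over all genes 318 rose and 146 fell in that comparison, against 344 and 186 without it. The numbers were not taken to pair the fish. In the fit of 12 libraries the correlation of deviations of same-numbered fish was over 0.1 in 2 of 3 pairs between the diets pre-stress (0.0953 to 0.157), where each of the 6 fish correlated best with its own number, and in at most 1 of 3 pairs in the other comparisons at 1 h. In the fit of 18 libraries it was over 0.1 in all 3 pairs between the diets pre-stress (0.114 to 0.151) and between LAN4 at 6 h and at 1 h (0.15 to 0.203), and in 0 of 3 pairs of each comparison made in that fit.

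The smallest fold change of an abundant gene that passed by edgeR was -0.51 on the log2 scale, with 3 fish a group and a median SD between fish of 0.21. The effect of depth was not tested. Time and lane cannot be told apart at 1 h, and 26 of the genes have no value at 6 h here.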
